A study of Mus musculus with 27 samples.

Results

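Solute carriers are membrane proteins that move sugars, amino acids, ions, metals, nucleotides and vitamins across the plasma membrane or the membranes of organelles, and their gene symbols begin with Slc and a family number. The genes described here are those whose symbol begins with Slc and a digit and that reached at least 1 TPM (a level scaled for gene length and for the total of the library) in at least 3 of 9 RNA-seq libraries. Of 376 such symbols in the deposited table, 204 met this rule, among 13374 genes that met it out of 24953 listed. The members were thus chosen by their TPM, so levels are given as a description, and a member that passed through 1 genotype alone had to differ between genotypes. Just inside the limit were Slc1a1, Slc22a18 and Slc22a13b-ps, whose third-highest library stood at 1.0, 1.0 and 1.1 TPM. Just outside were Slc25a18, Slc2a2 and Slc6a19, at 0.8, 0.8 and 0.9 TPM. A symbol is no proof of a carrier, since Slc9a3r1 and Slc9a3r2 encode scaffold proteins, Slc4a1ap and Slc7a6os are named for a partner or a neighbour, and Slc2a4rg-ps and Slc22a13b-ps are listed as pseudogenes. These 6 were kept in the counts.

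The libraries came from mK4 cells, a mouse line derived from the mesenchyme of the embryonic kidney, in 3 genotypes with 3 libraries each. Control cells are the parental line. Runx1KO cells lost exon 3 of Runx1, a transcription factor gene, by CRISPR/Cas9, and ZebDKO cells lost the exons with the start codons of Zeb1 and Zeb2, which encode repressors of epithelial genes. All were grown in medium with serum until near or at confluence, without treatment, and in triplicate cultures per the methods of the study. The knockouts were picked as clones, and how many clones were sequenced is not stated, so clone and genotype cannot be told apart. ChIP-seq of Runx1 and Runx2 and ATAC-seq, an assay of open chromatin, covered control and Runx1KO cells, with no such data for ZebDKO cells.

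In the embryonic kidney, condensing mesenchyme turns into epithelium, and the tubules that form later use carriers on their apical and basolateral sides to recover glucose, phosphate, amino acids and bicarbonate from the filtrate. Cultured cells of any origin rely on carriers for glucose, glutamine and leucine, for export of lactate, for zinc and iron balance, and for exchange of metabolites across the inner mitochondrial membrane. Zeb proteins bind DNA at CAGGTA or CAGGTG and Runx proteins at TGTGGT, so these 3 motifs were searched on both strands near the members.

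The libraries of a genotype were alike and the genotypes stood apart, with Pearson correlations of log2(TPM+1) of at least 0.994 within and at most 0.927 between genotypes. TPM keeps no read numbers, so no depth per library was computed, and 12541 to 12697 genes reached 1 TPM per library. Runx1 stood at 15.6 to 18.7 TPM in control, 28.5 to 30.3 in Runx1KO and 9.4 to 10.5 in ZebDKO libraries, and Zeb1 at 14.2 to 15.6, 0.1 to 0.2 and 14.8 to 16.8 TPM. Zeb2 stood at 4.9 to 5.5, at 0.2 in each Runx1KO library and at 1.6 to 1.8 TPM. A value over the whole gene cannot show the loss of an exon, so these levels neither check nor contradict the labels. Of 12 markers of metanephric mesenchyme, 8 averaged at least 1 TPM in control cells, with Pax2 at 313, Hoxa11 at 214 and Pax8 at 200 TPM, while Hoxd11 was listed at 0 in all libraries, and 3 of the 12 fell in Runx1KO cells and 1 rose and 1 fell in ZebDKO cells. The sum of 10 epithelial markers was 3.3 to 5.8 TPM in control, 2663.5 to 2745.2 in Runx1KO and 1151.1 to 1210.4 in ZebDKO libraries, nearly all of it Krt8, and 7 of the 10 rose in Runx1KO and 5 in ZebDKO cells. Of 10 mesenchymal markers, which summed to 4053.8 to 4135.7, 3315.5 to 3374.2 and 2959.7 to 3028.3 TPM, 4 fell in Runx1KO and 1 in ZebDKO cells. The list holds Zeb1 and Zeb2 themselves. Both were among the 4 (log2 change -3.77 and -2.37), and the 1 was Zeb2 (-1.20), a gene targeted in those cells. Of 11 markers of blood, endothelial, muscle and neural cells, which summed to 91.3 to 103, 60.1 to 65.6 and 68.4 to 77.3 TPM, 3 fell in Runx1KO and 1 rose in ZebDKO cells, and the blood markers Ptprc and Hbb-b1 were listed at 0 throughout. By the limits given below, 7.74% of all tested genes rose and 5.03% fell in Runx1KO cells, and 7.31 and 7.07% did in ZebDKO cells. The part of this change in marker levels in the results on carriers was not tested, and in bulk RNA fewer cells of a kind and less RNA per cell cannot be told apart.

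Carrier genes as a group held a similar share of the transcriptome in the 3 genotypes, slightly higher in Runx1KO cells. Their summed level was 9381 ± 77.0 TPM in control, 9828 ± 89.2 in Runx1KO and 9420 ± 36.1 in ZebDKO cells (mean ± SD, n = 3 each), or 0.938, 0.983 and 0.942% of all TPM. Each Runx1KO library (9747.1 to 9923.6 TPM) stood above each control library (9302.8 to 9456.7 TPM). The Slc25 family of mitochondrial carriers made up the largest share of this sum, with 38 members and 3594 ± 52.2, 3695 ± 52.9 and 3537 ± 16.9 TPM. The 5 genes with the highest mean over the 9 libraries were the phosphate carrier Slc25a3 at 727 TPM, the ADP/ATP carriers Slc25a5 at 663 and Slc25a4 at 554, the leucine carrier Slc7a5 at 518, and the mitochondrial carrier Slc25a39 at 345 TPM. They were followed by the glucose carrier Slc2a1 at 321, the zinc importer Slc39a1 at 263, the heavy chain Slc3a2 at 232, the glutamate carrier Slc1a3 at 231 and the ATP-Mg/phosphate carrier Slc25a24 at 226 TPM. Of the 204 members 169 reached 1 TPM in all 9 libraries, 23 averaged at least 100 TPM and 56 averaged under 5 TPM. Another 15 reached it in every library of 1 genotype and in none of the others, 7 of them in control, 3 in Runx1KO and 5 in ZebDKO cells, and 8 reached it in all libraries of both knockouts and in none of control.

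Single genes moved far more than the sum. A gene was called when limma on log2(TPM+1) gave a two-sided Benjamini-Hochberg adjusted p under 0.05 over all 13374 genes and a change over 2-fold, and a fold on this scale understates the change of genes near 1 TPM. In Runx1KO against control cells 24 of the 204 members rose (11.8%), where 7.74% of all tested genes did, and 10 fell (4.9%), where 5.03% did. In ZebDKO against control cells 20 rose (9.8%, background 7.31%) and 11 fell (5.39%, background 7.07%). In ZebDKO against Runx1KO cells 13 were higher (6.37%, background 6.47%) and 14 lower (6.86%, background 9.02%). The median log2 change of the members was -0.02, 0.00 and -0.10 in these comparisons, beside -0.06, -0.18 and -0.14 over all tested genes. With adjusted p under 0.05 at any size, 73.0, 79.4 and 81.4% of members differed, against 69.5, 79.3 and 79.1% of all tested genes. The libraries of the genotypes did not overlap for 77.9, 79.9 and 81.4% of the members and for 72.8, 79.7 and 80.8% of all tested genes, and in every called pair of gene and comparison they did not overlap. For some calls the gene reached 1 TPM in 1 genotype alone and so entered through the group where it is high, and no p is given for these. They were 3 of the 24 rises (Slc13a2, Slc44a3 and Slc6a13) and 4 of the 10 falls in Runx1KO cells (Slc4a4, Slc16a6, Slc18b1 and Slc24a3), and 2 of the 20 rises (Slc1a1 and Slc34a1) and the same 4 of the 11 falls in ZebDKO cells. In ZebDKO against Runx1KO cells they were 3 of the 13 higher (Slc1a1, Slc16a13 and Slc34a1) and 3 of the 14 lower (Slc13a2, Slc44a3 and Slc6a13). A further 8 members reached 1 TPM in every library of both knockouts and in none of control. They entered through the knockouts, and no p is given for them against control. Among these 8 were Slc2a3, Slc45a3, Slc6a12 and Slc22a7, each called higher in both knockouts. The rises against control thus hold more members that entered through a group where they are high than the 3 and 2 named above. Under median-ratio scaling the ZebDKO counts against control became 28 higher and 9 lower, and under quantile normalization 24 and 9. The background then was 9.0 and 4.97% of all tested genes under the former and 7.81 and 5.74% under the latter. The median over all tested genes moved from -0.18 to 0.01 and to -0.08.

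The members fell into 44 Slc families, of which 9 had 1 member and 13 had 5 or more. Between Runx1KO and control cells the summed level differed over 2-fold in 8 families that reached 1 TPM, namely Slc1, Slc2, Slc4, Slc13, Slc14, Slc23, Slc45 and Slc52. Between ZebDKO and control cells it did in 6, namely Slc4, Slc14, Slc23, Slc34, Slc40 and Slc45. Slc13 and Slc34 have 1 member each, Slc13a2 and Slc34a1. These entered the set through Runx1KO and ZebDKO cells alone, so the sums of these 2 families had to differ. Most such sums followed 1 gene, as in the ascorbate carrier family Slc23 at 21.1 ± 1.20, 84.5 ± 2.06 and 49.0 ± 3.14 TPM in control, Runx1KO and ZebDKO cells, the glucose carrier family Slc2 at 148 ± 2.56, 678 ± 17.4 and 270 ± 4.60 TPM, and Slc45 at 3.23 ± 0.21, 33.7 ± 0.53 and 12.9 ± 0.91 TPM. The single heme carrier gene of its family, Slc48a1, stood at 155 ± 5.20, 88.1 ± 1.15 and 85.5 ± 1.49 TPM, short of the 2-fold limit. The Slc38 family of glutamine and neutral amino acid carriers summed to 218 ± 11.9, 283 ± 2.46 and 360 ± 11.6 TPM, most of it Slc38a2 at 136, 184 and 256 TPM, with no call at 2-fold against control by the limma fit, while median-ratio scaling called Slc38a2 higher in ZebDKO cells. In it Slc38a9, an amino acid sensor of lysosomes, averaged 1.93, 4.30 and 1.53 TPM, and the call of its shortfall of -1.07 in ZebDKO against Runx1KO cells was lost under median-ratio scaling (-0.98) and quantile normalization (-0.93) and without ZebDKO replicate 3 (-0.98).

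**Figure D1:**
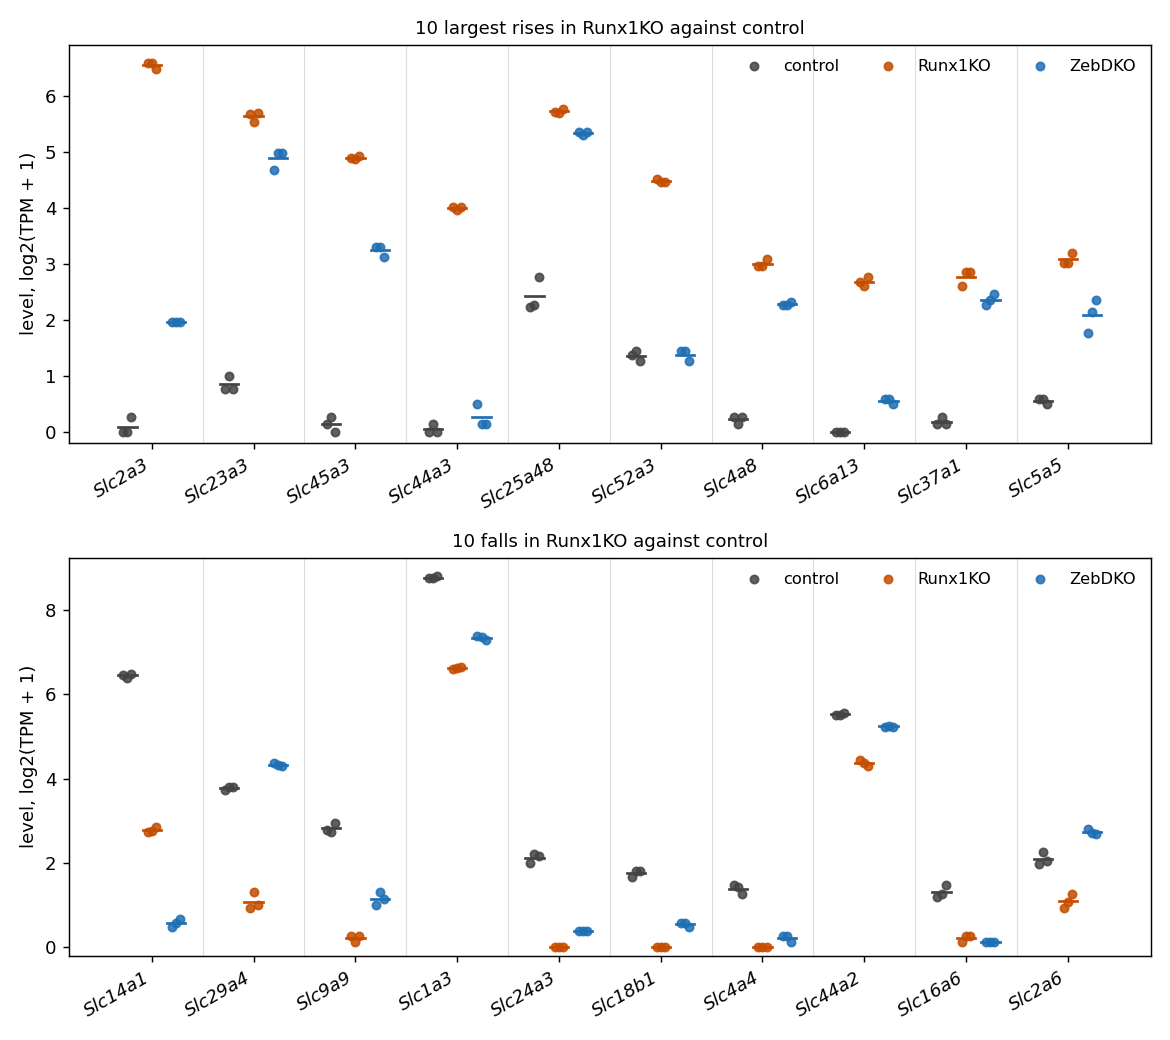
Level of the 10 members with the largest rise and the 10 with the largest fall in Runx1KO against control cells, as log2(TPM + 1), with 1 point for each of the 9 libraries, coloured by genotype. Slc2a3 stood at 0 to 0.2 TPM in control, 88.5 to 95.4 in Runx1KO and 2.9 in each ZebDKO library, and Slc14a1 fell from 82.8 to 88.4 TPM in control to at most 6.2 in the knockouts.

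Among the substrate classes, that of sugars and monocarboxylates changed most in summed level in Runx1KO cells. The class of sugar and monocarboxylate carriers (22 members, sorted by Slc family) summed to 427 ± 6.92 TPM in control, 1083 ± 16.0 in Runx1KO and 613 ± 6.55 in ZebDKO cells (SD, n = 3 each). In it 5 genes rose and 2 fell in Runx1KO cells (background 7.74 and 5.03% of all tested genes), and 5 rose and 1 fell in ZebDKO cells (background 7.31 and 7.07%). Control libraries held 0, 0 and 0.2 TPM of Slc2a3, the high-affinity glucose carrier known from neurons, which stood at 94.9, 95.4 and 88.5 TPM in Runx1KO, and at 2.9 TPM in each ZebDKO library. The genotypes did not overlap, and ZebDKO cells stood far closer to control than to Runx1KO. Slc2a3 reached 1 TPM in all libraries of both knockouts and in none of control. It thus entered through the knockouts, and no p is given against control. Its log2 change was 6.47 (SE 0.08) in Runx1KO and 1.88 (SE 0.08) in ZebDKO cells. It was lower by 4.59 in ZebDKO than in Runx1KO cells (log2 change -4.59, SE 0.08, adjusted p 1.36e-10 by limma).

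Slc2a1, the glucose carrier of most proliferating cells, was already abundant. It stood at 137.2, 134.8 and 132.9 TPM in control, 570.1, 553.9 and 594.8 in Runx1KO and 255.5, 249.0 and 258.1 in ZebDKO libraries. All knockout libraries lay above all control libraries, with ZebDKO in between. The rise in Runx1KO was 2.08 on the log2 scale (SE 0.03, adjusted p 2.87e-11). The difference of ZebDKO from control, 0.91 (SE 0.03, adjusted p 7.66e-09), was under the 2-fold limit, and passed it under median-ratio scaling. In a list of 10 genes for uptake of glucose and transport of lactate, of which 5 were members, the summed level was 274.1 to 292.7 TPM in control, 866.3 to 894.7 in Runx1KO and 415 to 416.5 in ZebDKO libraries. Its lactate and pyruvate carrier Slc16a1 stood at 126, 198 and 136 TPM (means of control, Runx1KO and ZebDKO) and was not called. Of this list 2 genes rose in Runx1KO (Slc2a1 and Slc2a3) and 2 in ZebDKO cells (Slc2a3 and Slc16a8), and none fell in either. The background was 7.74 and 7.31% of all tested genes for rises and 5.03 and 7.07% for falls. The list's median log2 change was 0.64 in Runx1KO and 0.91 in ZebDKO cells, over its 5 members. Of these, Slc5a2 and Slc16a8 averaged 18.2 and 1.27 TPM over the control and Runx1KO libraries. Both stood near 0, at 0.03 and 0.035 TPM, in the table of 6 libraries described further on.

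Other members of the class rose from almost nothing. Slc45a3, a sugar carrier first known from prostate, stood at 0.1, 0.2 and 0 TPM in control, 28.6, 28.3 and 29.6 in Runx1KO and 8.8, 8.9 and 7.7 in ZebDKO libraries (log2 change 4.77 and 3.11 against control). Slc37a1, a phosphate-linked glucose-6-phosphate antiporter of the endoplasmic reticulum, averaged 0.13, 5.83 and 4.13 TPM in control, Runx1KO and ZebDKO cells (log2 change 2.59 and 2.18). Slc5a5, which carries iodide though its family is that of sodium-glucose carriers, averaged 0.47, 7.47 and 3.30 TPM (log2 change 2.53 and 1.53). Slc2a6, a glucose carrier of lysosomes, moved the other way, from 2.9, 3.8 and 3.1 TPM in control to 0.9, 1.1 and 1.4 in Runx1KO, with 6.0, 5.5 and 5.4 in ZebDKO libraries. Its fall in Runx1KO sat just past the 2-fold limit and was lost when control replicate 2 (-0.91), Runx1KO replicate 1 (-0.92) or Runx1KO replicate 2 (-0.99) was left out and under median-ratio scaling (-0.95), and its excess in ZebDKO over Runx1KO cells was 1.64 (SE 0.11, adjusted p 5.4e-07). Slc16a6, a carrier of the monocarboxylate family, fell in both knockouts from 1.3 to 1.8 TPM to at most 0.2 TPM (log2 change -1.10 and -1.18).

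**Figure D2:**
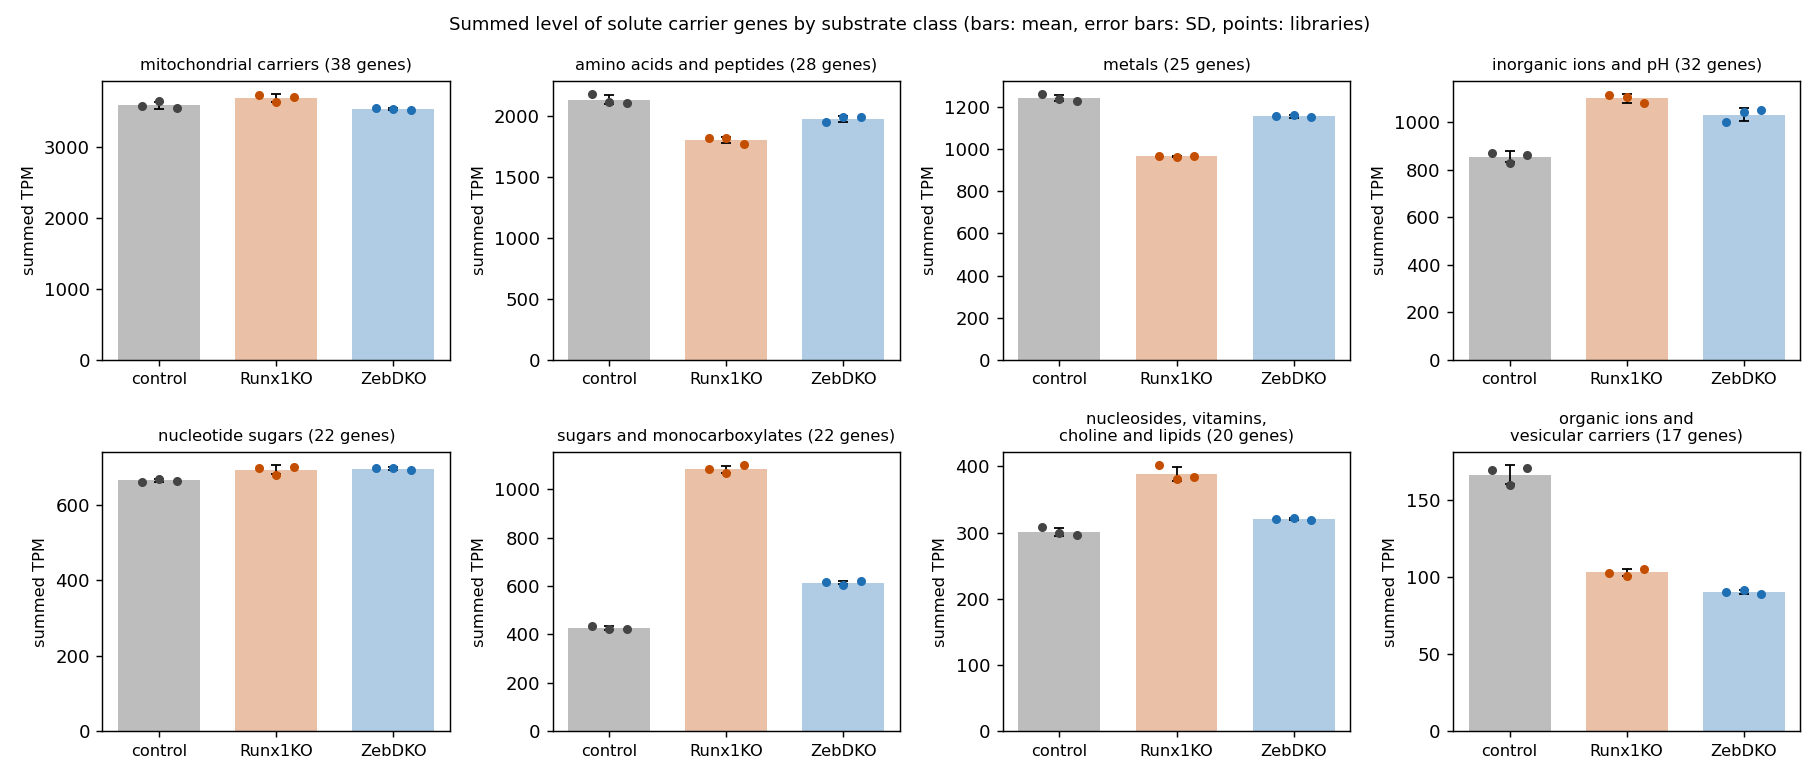
Summed TPM of the members of each substrate class in control, Runx1KO and ZebDKO cells, with bars for the mean of 3 libraries, error bars for the SD and points for the libraries. The sugar and monocarboxylate class rose from 427 to 1083 TPM in Runx1KO cells, and the mitochondrial class stayed between 3537 and 3695 TPM.

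Among amino acid carriers the glutamate carrier that was most abundant in control cells fell in both knockouts. Slc1a3, which takes up glutamate and aspartate with sodium, stood at 428.2, 429.5 and 443.3 TPM in control, 95.8, 97.3 and 98.5 in Runx1KO and 166.5, 161.8 and 155.8 in ZebDKO libraries. No knockout library came near the control range, and Runx1KO was the lower of the knockouts. The log2 change was -2.15 (SE 0.03, adjusted p 2.17e-11) in Runx1KO and -1.42 (SE 0.03, adjusted p 4.14e-10) in ZebDKO cells. With it the Slc1 family summed to 574 ± 2.27 TPM in control, 248 ± 4.09 in Runx1KO and 298 ± 4.82 in ZebDKO cells, and the class of amino acid and peptide carriers (28 members) to 2131 ± 37.4, 1800 ± 25.7 and 1974 ± 24.0 TPM. In that class 3 rose and 1 fell in each knockout, with a background of 7.74 and 5.03% in Runx1KO and 7.31 and 7.07% in ZebDKO cells.

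The neuronal glutamate carrier Slc1a1 was listed at 0 in all control and Runx1KO libraries and at 1.1, 1.0 and 1.1 TPM in ZebDKO. It entered the set through ZebDKO cells alone. A pair of neighbouring genes on chromosome 6 that carry GABA, betaine and taurine went up together in Runx1KO cells. Slc6a13 had a listed value of 0 in each control library and stood at 5.4, 5.1 and 5.8 TPM in Runx1KO and at 0.5, 0.5 and 0.4 in ZebDKO. Slc6a12 stood at 0, 0 and 0.1 TPM in control, 4.6, 4.9 and 4.5 in Runx1KO and 2.6, 1.7 and 2.3 in ZebDKO (log2 change 2.46 and 1.62). The annotated starts, at 121250245 for Slc6a13 and 121293094 for Slc6a12, are both on the plus strand (mm9).

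Heteromeric carriers pair a heavy chain (Slc3a1 or Slc3a2) with a light chain of the Slc7 family, and changed little. Of 10 such genes 6 were members, and 1 of them, Slc7a7, a light chain for cationic amino acids, rose in both knockouts. It stood at 1.0, 1.0 and 1.1 TPM in control, 4.3, 4.1 and 4.2 in Runx1KO and 3.5, 3.7 and 3.3 in ZebDKO libraries (log2 change 1.35 and 1.15). The pair for leucine uptake was not called, with Slc3a2 at 250, 239 and 208 TPM and Slc7a5 at 555, 504 and 496 TPM. The cystine carrier Slc7a11 stood at 1.13, 2.70 and 1.67 TPM and was not called. The list's median log2 change was -0.01 in Runx1KO and -0.04 in ZebDKO cells, and the background of rises was 7.74 and 7.31% of all tested genes. Slc36a1, a proton-coupled amino acid carrier of lysosomes, averaged 24.0, 13.4 and 45.2 TPM, and was higher by 1.68 in ZebDKO than in Runx1KO cells (log2, SE 0.05, adjusted p 5.31e-09). Its difference of ZebDKO from control, 0.89, was under the limit and passed it under median-ratio scaling and quantile normalization.

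Among carriers of inorganic ions (32 members, with sums of 855 ± 22.2, 1100 ± 17.4 and 1032 ± 28.3 TPM) the Slc4 family stood out in level, at 122 ± 3.16, 258 ± 7.26 and 272 ± 2.70 TPM. In the knockouts most of this was Slc4a11, a borate-transporter relative that conducts protons and water, with 38.2, 38.2 and 36.8 TPM in control, 181.0, 177.5 and 164.0 in Runx1KO and 167.6, 169.8 and 162.9 in ZebDKO libraries. Both knockouts lay far above control and overlapped each other, and their difference of -0.06 (log2, SE 0.04) had an adjusted p of 0.181. The rise was 2.18 (SE 0.04, adjusted p 9.56e-11) in Runx1KO and 2.11 (SE 0.04, adjusted p 2.05e-10) in ZebDKO cells. Slc4a8, a sodium-driven chloride/bicarbonate exchanger, averaged 0.17, 7.03 and 3.87 TPM (log2 change 2.78 and 2.06). Slc4a5, a sodium-bicarbonate carrier, stood at 1.9, 2.0 and 2.7 TPM in control, 13.3, 11.3 and 12.7 in Runx1KO and 1.7, 2.0 and 1.7 in ZebDKO. Its rise was called in Runx1KO cells (2.08, SE 0.10), its ZebDKO level overlapped control, and ZebDKO was lower than Runx1KO by a called -2.26.

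Slc4a4, the sodium-bicarbonate carrier of the proximal tubule, went the other way, from 1.8, 1.7 and 1.4 TPM in control to 0 in all Runx1KO libraries and 0.2, 0.2 and 0.1 in ZebDKO. Slc24a3, a sodium/calcium/potassium exchanger, was at 3.0, 3.6 and 3.5 TPM in control, 0 in all Runx1KO libraries and 0.3 in each ZebDKO library. Slc9a9, a sodium/proton exchanger of endosomes, averaged 6.10, 0.17 and 1.23 TPM (log2 change -2.60 and -1.67). All 3 reached 1 TPM in every control library and in no Runx1KO library. Slc26a2, a sulfate carrier, stood at 7.2, 6.0 and 7.1 TPM in control, 5.2, 5.5 and 5.3 in Runx1KO and 1.3, 1.3 and 1.5 in ZebDKO libraries (log2 change of ZebDKO -1.71 against control and -1.42 against Runx1KO). Its difference of -0.29 between Runx1KO and control was under the 2-fold limit. Slc26a11, another member of that family, rose to 31.1, 29.7 and 29.1 TPM in Runx1KO from 9.7, 7.7 and 9.8 in control (log2 change 1.63). Its rise of 1.02 in ZebDKO cells was lost when control replicate 2 (0.92) or ZebDKO replicate 2 (0.97) was left out.

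Genes of differentiated nephron segments stayed silent for the most part. Of 29 tubule transporters 4 were members and 10 were listed at 0 in all 9 libraries, among them the organic anion carriers Slc22a6 and Slc22a8, the sodium/proton exchanger Slc9a3 and the loop carrier Slc12a1. Slc34a1, the main phosphate carrier of the proximal tubule, stood at 0, 0 and 0.1 TPM in control, 0.2, 0 and 0 in Runx1KO and 2.4, 2.7 and 2.6 in ZebDKO libraries. It passed the level rule through its ZebDKO libraries alone, with a log2 change of 1.79 against control and 1.75 against Runx1KO cells. With Slc4a4, it made up the called genes of the list, which had 0 higher and 1 lower in Runx1KO and 1 higher and 1 lower in ZebDKO cells. The background was 7.74 and 5.03% of all tested genes in Runx1KO and 7.31 and 7.07% in ZebDKO cells. The other members, Slc5a2 at 21.0, 15.4 and 15.8 TPM and Slc3a1 at 11.3, 8.90 and 8.73 TPM, were not called, and both stood near 0 in the table of 6 libraries described further on. Their median log2 change over the 4 members was -0.37 in Runx1KO and -0.36 in ZebDKO cells.

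Of 20 carriers known from membranes of simple epithelia 12 were members, and 3 rose in Runx1KO and 2 in ZebDKO cells, with no fall in either, where 7.74 and 7.31% of all tested genes rose and 5.03 and 7.07% fell. At an unadjusted p under 0.05 and any size, limma had 6 of the 12 higher and 4 lower in Runx1KO cells. In ZebDKO cells it had 6 higher and 1 lower, and 7 and 0 under median-ratio scaling. For all tested genes no share at that p was computed. Slc44a3, of the choline carrier-like family, stood at 0, 0.1 and 0 TPM in control, 15.2, 14.5 and 15.2 in Runx1KO and 0.4, 0.1 and 0.1 in ZebDKO libraries. The riboflavin carrier Slc52a3 stood at 1.6, 1.7 and 1.4 TPM in control, 21.9, 21.2 and 21.0 in Runx1KO and 1.7, 1.7 and 1.4 in ZebDKO libraries. For both genes ZebDKO overlapped control, while Runx1KO stood far above. Slc44a3 entered the set through its Runx1KO libraries alone. The log2 changes in Runx1KO were 3.95 for Slc44a3 (SE 0.11) and 3.12 for Slc52a3 (SE 0.07, adjusted p 4.2e-10), and ZebDKO differed from Runx1KO by -3.74 and -3.11 (adjusted p 8.56e-10 for Slc52a3). Slc4a11, above, was the remaining riser in Runx1KO, and Slc4a11 and the iron exporter Slc40a1 were those in ZebDKO cells. The scaffold gene Slc9a3r1 of this list averaged 175, 221 and 196 TPM and was not called. The list's median log2 change was 0.21 in Runx1KO and 0.18 in ZebDKO cells. The sum of epithelial markers given above moved in the same libraries, and its part in these changes was not tested.

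Metal carriers (25 members) were lowest in Runx1KO cells in sum, at 1242 ± 16.2 TPM in control, 966 ± 2.55 in Runx1KO and 1156 ± 6.49 in ZebDKO cells, but no gene of the class was called in Runx1KO against control. Among 24 zinc carriers 17 were members, with 0 higher and 0 lower in Runx1KO, 0 higher and 1 lower in ZebDKO, and 2 higher and 0 lower in ZebDKO against Runx1KO cells. Over all tested genes these shares were 7.74 and 5.03%, 7.31 and 7.07%, and 6.47 and 9.02%. At an unadjusted p under 0.05 and any size, limma had 3 of the 17 higher and 9 lower in Runx1KO, 2 higher and 10 lower in ZebDKO, and 5 higher and 9 lower in ZebDKO against Runx1KO cells, while median-ratio scaling and quantile normalization also called 0 in Runx1KO cells. In ZebDKO cells the split at that p was 6 higher and 7 lower under median-ratio scaling and 5 and 7 under quantile normalization, and in Runx1KO cells it was 3 and 9, and 3 and 11. The share of all tested genes at that p was not computed. The list's median log2 change was -0.23 in Runx1KO and -0.27 in ZebDKO cells. The importer Slc39a1 stood at 258.1, 252.0 and 256.9 TPM in control, 161.8, 160.9 and 163.4 in Runx1KO and 372.0, 365.1 and 372.5 in ZebDKO libraries. The genotypes did not overlap and the knockouts lay on opposite sides of control. The difference of 1.19 between ZebDKO and Runx1KO cells was called (log2, SE 0.02, adjusted p 2.28e-10), and the differences from control were -0.65 and 0.53. Slc30a4, which moves zinc into vesicles, fell in ZebDKO cells from 80.1, 74.9 and 73.5 TPM in control to 32.2, 33.4 and 29.9 TPM, with 47.2 in each Runx1KO library (log2 change -1.23 in ZebDKO). Slc40a1 stood at 1.4, 2.2 and 1.3 TPM in control, 2.0, 1.4 and 1.9 in Runx1KO and 5.1, 5.1 and 4.0 in ZebDKO (log2 change 1.13, SE 0.15, adjusted p 6.57e-05). Slc39a4, an intestinal zinc importer, averaged 0.77, 0.33 and 1.70 TPM, and the call of its excess of 1.02 in ZebDKO over Runx1KO cells was lost without Runx1KO replicate 1 (0.95) or ZebDKO replicate 1 (0.99). Slc41a2, a magnesium carrier, averaged 24.9, 13.3 and 35.3 TPM and was higher by 1.35 in ZebDKO than in Runx1KO cells.

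Mitochondrial carriers were steady in sum, and of the 38 genes 4 were called higher and 0 lower in Runx1KO (background 7.74 and 5.03%) and 2 higher and 2 lower in ZebDKO cells (background 7.31 and 7.07%). Slc25a48, a carrier of the inner membrane, stood at 3.7, 3.8 and 5.8 TPM in control, 51.3, 50.7 and 53.7 in Runx1KO and 40.0, 38.5 and 40.0 in ZebDKO libraries. Both knockouts lay far above control (log2 change 3.30 and 2.92). The citrate carrier Slc25a1 rose from 94.7, 93.8 and 94.5 TPM in control to 203.7, 198.5 and 199.9 TPM in Runx1KO (log2 change 1.08, SE 0.03), with 133.6, 132.0 and 138.9 in ZebDKO. The ATP-Mg/phosphate carrier Slc25a25 averaged 10.4, 22.3 and 39.2 TPM (log2 change 1.03 and 1.82). Without Runx1KO replicate 3 its Runx1KO change came to the limit and was no longer called. Slc25a29, a carrier of basic amino acids, averaged 3.13, 7.40 and 2.77 TPM, and its Runx1KO change of 1.04 fell to 0.98, 0.94 and 0.99 without control replicate 1, control replicate 2 or Runx1KO replicate 1, and to 0.91 under quantile normalization. Slc25a44, a mitochondrial carrier of branched-chain amino acids, averaged 26.5, 16.8 and 35.5 TPM, and the call of its excess of 1.04 in ZebDKO over Runx1KO cells was lost without ZebDKO replicate 3 (0.99). Slc25a16 fell in ZebDKO cells from 34.5 to 15.8 TPM (log2 change -1.08), a call lost under median-ratio scaling (-0.89) and quantile normalization (-0.88). Slc25a40 fell from 7.57 to 3.13 TPM (log2 change -1.05), a call lost under the same scalings (-0.89 and -0.91) and without control replicate 3 or ZebDKO replicate 3 (-0.98 in each case).

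Carriers of nucleosides, vitamins, choline and lipids (20 members) summed to 301 ± 6.01, 389 ± 11.0 and 321 ± 1.51 TPM. Slc23a3, an orphan member of the ascorbate carrier family, stood at 0.7, 1.0 and 0.7 TPM in control, 50.3, 45.7 and 51.1 in Runx1KO and 24.6, 30.8 and 30.8 in ZebDKO libraries. The genotypes did not overlap (log2 change 4.80 in Runx1KO, SE 0.10, and 4.04 in ZebDKO, SE 0.10). In control cells Slc23a3 met the limit of 1 TPM only in the library at 1.0 TPM. It thus entered through the knockouts, and no p is given against control. Slc29a4, a monoamine and adenosine carrier of the plasma membrane, moved apart between the knockouts, with 12.3, 12.9 and 13.0 TPM in control, 0.9, 1.5 and 1.0 in Runx1KO and 19.5, 18.9 and 18.7 in ZebDKO libraries. It fell by 2.70 on the log2 scale in Runx1KO cells (SE 0.09, adjusted p 7.1e-09), and ZebDKO exceeded Runx1KO by 3.24 (SE 0.09, adjusted p 3.05e-09), the largest excess of ZebDKO over Runx1KO among the members. Slc44a2, a choline carrier, fell in Runx1KO cells from 44.7, 44.2 and 45.6 to 20.6, 19.5 and 18.8 TPM (log2 change -1.15), with 36.5, 37.1 and 36.3 TPM in ZebDKO. Slc27a1, a fatty acid carrier, rose in Runx1KO cells to 8.6, 7.1 and 8.1 TPM from 2.6, 2.8 and 3.1 in control (log2 change 1.22), with 5.3, 4.7 and 5.1 TPM in ZebDKO. The 22 carriers of nucleotide sugars, all of the Slc35 family, summed to 665 ± 4.15, 692 ± 11.9 and 696 ± 3.46 TPM. The limma fit called 0 of them in each of the 3 comparisons, with 6 higher and 10 lower in Runx1KO and 6 higher and 11 lower in ZebDKO cells at an unadjusted p under 0.05, while median-ratio scaling called Slc35b2 higher in ZebDKO cells. Under median-ratio scaling and under quantile normalization the ZebDKO split at that p was 10 higher and 9 lower. The share of all tested genes at that p was not computed.

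The urea carrier Slc14a1 had the largest fall in both knockouts. It stood at 86.8, 82.8 and 88.4 TPM in control, 5.7, 5.8 and 6.2 in Runx1KO and 0.4, 0.5 and 0.6 in ZebDKO libraries. The genotypes did not overlap, and ZebDKO was the lowest. The log2 change was -3.66 (SE 0.06, adjusted p 5.67e-11) in Runx1KO and -5.86 (SE 0.06, adjusted p 6.21e-12) in ZebDKO cells, and ZebDKO was lower than Runx1KO by -2.20 (SE 0.06, adjusted p 2.52e-09). In control cells alone it made up most of the class of organic ion and vesicular carriers (17 members), which summed to 167 ± 6.03, 103 ± 2.34 and 90.6 ± 1.21 TPM. Rises of low genes also fell in this class. Slc22a15, of the organic cation family, stood at 1.6, 1.3 and 1.9 TPM in control, 8.7, 8.1 and 7.7 in Runx1KO and 13.9, 13.9 and 13.1 in ZebDKO (log2 change 1.82 and 2.50), and Slc17a9, the vesicular ATP carrier, averaged 0.20, 1.63 and 3.73 TPM (1.13 and 1.99). The Runx1KO call of Slc17a9 was lost without Runx1KO replicate 2 and under quantile normalization (0.97). Slc18b1, a vesicular polyamine carrier, was at 2.2, 2.5 and 2.5 TPM in control, at 0 in all Runx1KO libraries and at 0.5, 0.5 and 0.4 in ZebDKO. Slc22a7, an organic anion carrier, stood at 0, 0 and 0.1 TPM in control, 1.9, 1.6 and 1.5 in Runx1KO and 2.5, 2.1 and 2.6 in ZebDKO (log2 change 1.37 and 1.72). The dicarboxylate carrier Slc13a2 rose in Runx1KO cells, at 1.8, 1.8 and 3.2 TPM beside 0.1, 0 and 0.1 in control and 0.3, 0.2 and 0.3 in ZebDKO (log2 change 1.59 in Runx1KO). Slc10a3 was lower in ZebDKO than in Runx1KO cells, at 6.27 against 16.3 TPM (log2 change -1.25).

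**Figure D3:**
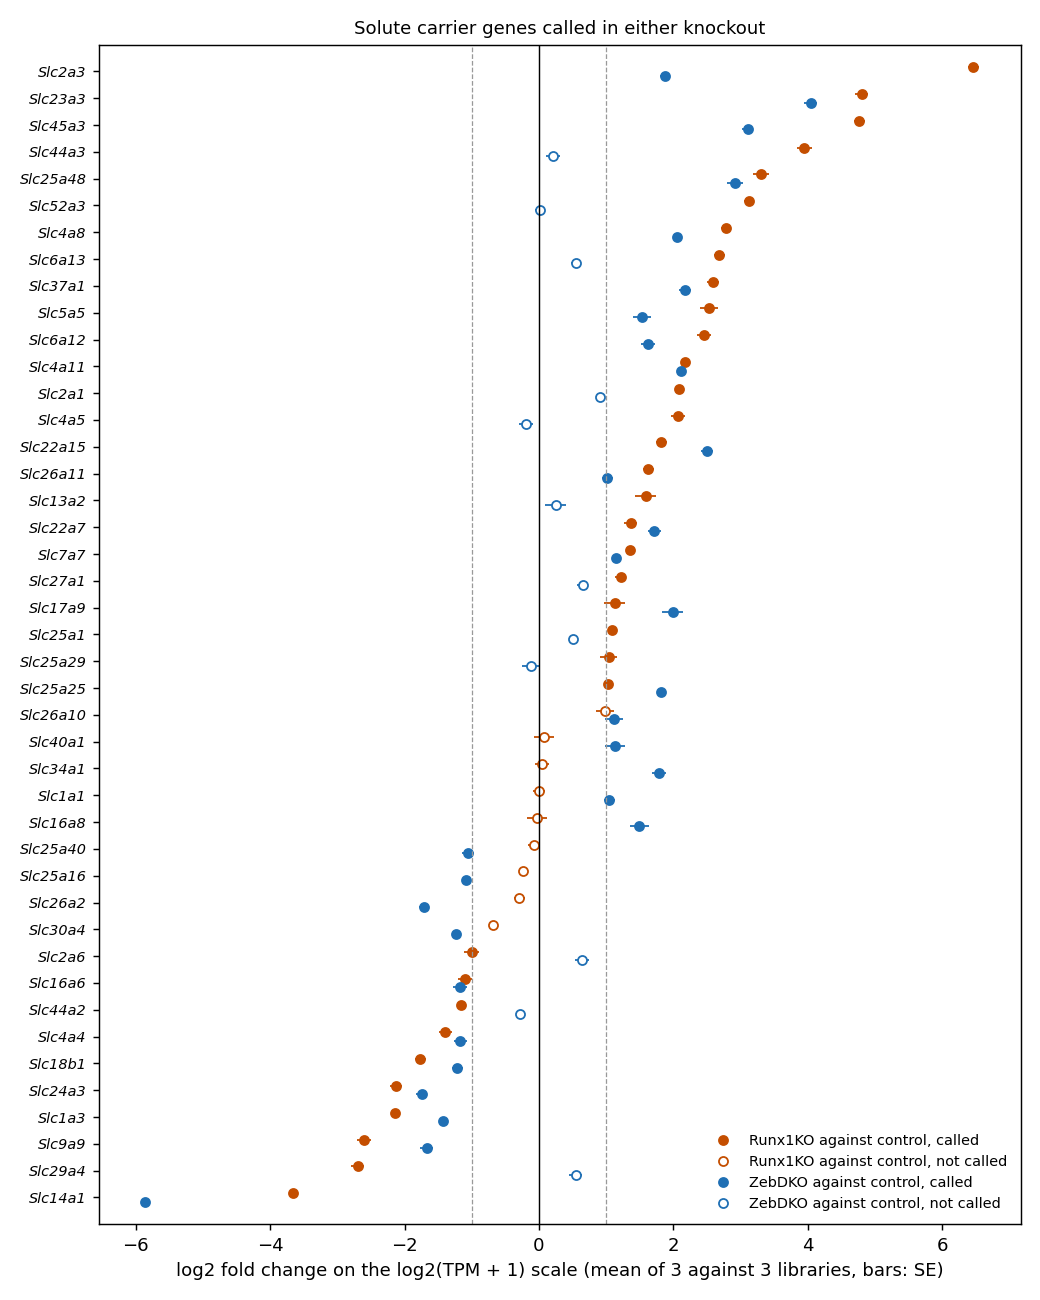
Log2 fold change with its SE, on the log2(TPM + 1) scale, of every member called in Runx1KO or ZebDKO against control cells, with filled points for calls and open points for values that were not called. Slc23a3, Slc45a3, Slc25a48, Slc4a8, Slc37a1 and Slc4a11 lie past 2 in both comparisons, while Slc44a3, Slc52a3 and Slc4a5 lie past 2 in Runx1KO and near 0 in ZebDKO cells, and both comparisons share the 3 control libraries.

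Both comparisons with control use the same 3 control libraries, so no overlap or correlation between them is given, and the direct contrast of the knockouts carries the difference. In it the largest shortfalls of ZebDKO were Slc2a3, Slc44a3, Slc52a3, Slc4a5, Slc14a1 and Slc6a13, and the largest excesses Slc29a4, Slc34a1, Slc36a1, Slc2a6, Slc16a8 and Slc41a2. Among these, Slc44a3, Slc6a13 and Slc34a1 reached 1 TPM in 1 genotype alone and entered the set through it, so they had to differ. Of 27 calls in this contrast, 1 excess and 6 shortfalls passed 4-fold. Of the calls against control, 14 rises and 5 falls passed 4-fold in Runx1KO cells, and 7 rises and 1 fall in ZebDKO cells.

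Open chromatin near the members was read from the deposited ATAC-seq lists, which class regions as Runx1-dependent (8741, less open in Runx1KO cells), Runx1KO-induced (9427, more open) or Runx1-independent (37481). The rule on levels did not use them, and they hold no values per replicate, so shares are given with Wilson 95% intervals that cover counting error only. Distances were taken to the nearest annotated start of a coding transcript (GENCODE vM1, build mm9), for all 204 members and 12640 of the 13374 tested genes. Within 20 kb of a start, 22 of the 24 members that rose in Runx1KO cells had an induced region (91.7%, interval 74.2 to 97.7%), as did 71.3% of all genes that rose. The same held for 1 of 10 members that fell (10.0%, interval 1.79 to 40.4%) and for 52 of 170 members not called (30.6%, interval 24.2 to 37.9%), beside 14.8% of all genes that fell and 26.7% of all genes not called. The members without one among the risers were Slc13a2 and Slc25a29. For members that rose in ZebDKO cells the count was 16 of 20 (80.0%, interval 58.4 to 91.9%), in regions mapped in Runx1KO cells, as for 59.7% of all genes that rose there.

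Closer in, within 1 kb, an induced region lay at 10 of the 24 risers (41.7%, interval 24.5 to 61.2%), 0 of the 10 that fell (interval up to 27.8%) and 5 of the 170 not called (2.94%, interval 1.26 to 6.70%). Among all tested genes the shares were 40.1% of risers and 2.82% of genes not called, so the members tracked the background. Slc2a3, Slc23a3, Slc44a3, Slc25a48, Slc52a3, Slc4a8, Slc37a1, Slc22a15, Slc22a7 and Slc6a12 were the 10 genes. A Runx1-dependent region lay within 1 kb of 3 of the 10 that fell (Slc29a4, Slc24a3 and Slc4a4), of 0 of the 24 that rose (interval up to 13.8%) and of 4 of the 170 others, and within 20 kb of 5, 3 and 30. Over all tested genes that fell, rose or were not called the shares were 33.3, 1.14 and 1.9% within 1 kb and 56.1, 14.5 and 18% within 20 kb, so here too the members tracked the background. Slc1a3, the most abundant member to fall, had no Runx1-dependent region within 20 kb and a Runx1-independent one across its start.

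Runx1 binding was read in the same way. A Runx1 ChIP-seq peak of control cells lay within 20 kb of 77 of the 204 members (37.7%) and of 37.6% of tested genes, of 9 of 24 risers (37.5%, interval 21.2 to 57.3%) and of 1 of 10 that fell (interval 1.79 to 40.4%), beside 27.9% of all genes that rose and 31.0% of all that fell. Slc2a1 was 1 of 2 risers with such a peak within 1 kb (8.33% of the 24, beside 8.38% of all genes that rose). That peak ends 5 bp before its start, Runx2 peaks of both control and Runx1KO cells lie across the start, and the nearest induced region is 12007 bp before it. For Slc52a3 a Runx1 peak lies 1884 bp before the start, beside Runx2 peaks of both cell types. Whether these regions act on these genes was not tested.

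**Figure D4:**
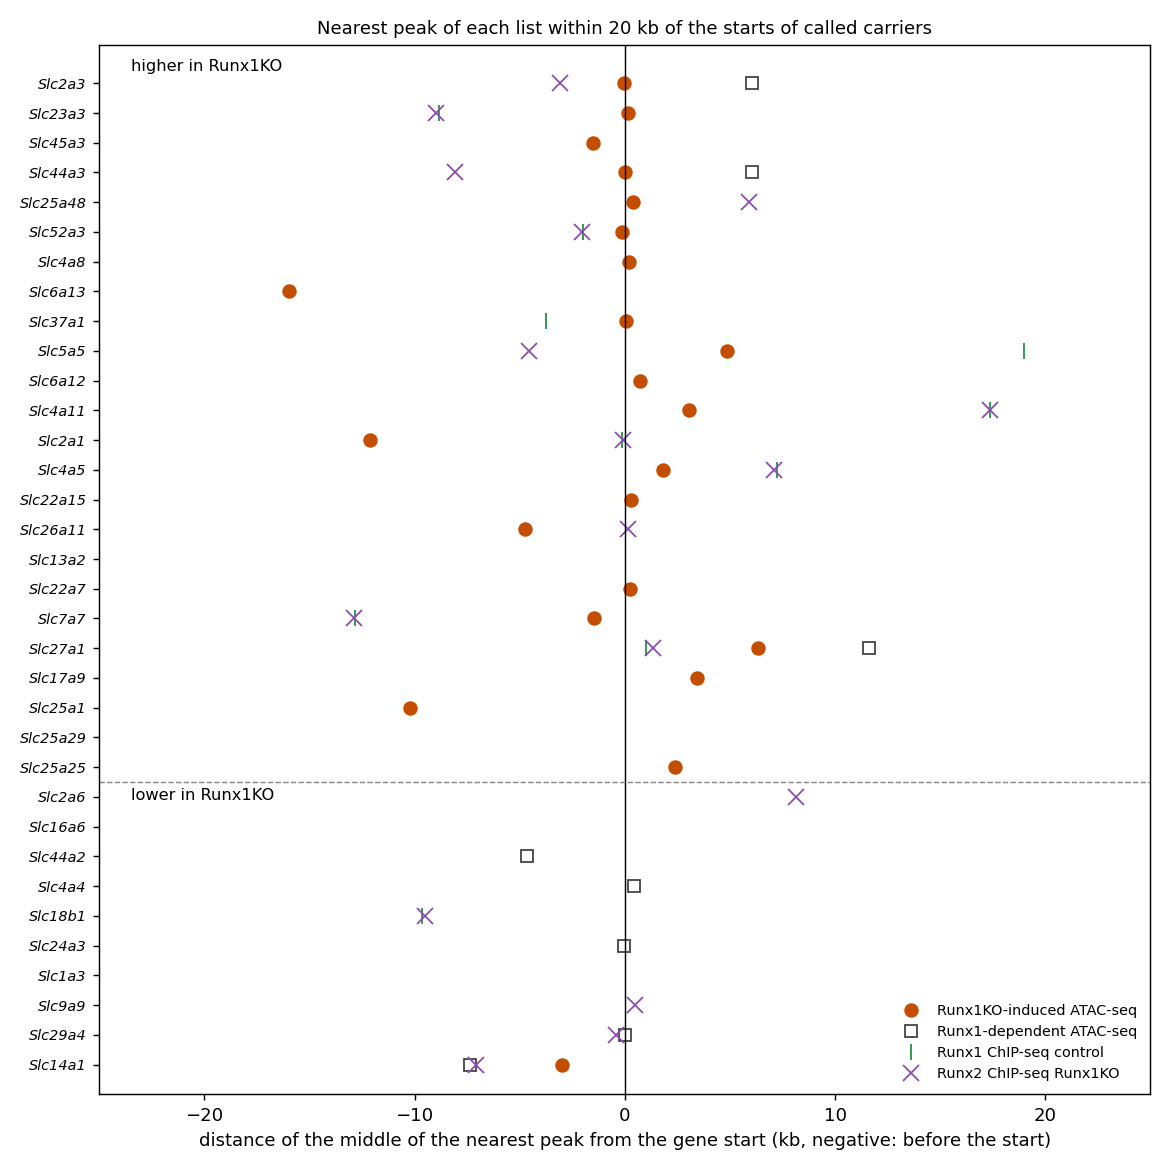
Distance in kb from the gene start to the middle of the nearest Runx1KO-induced or Runx1-dependent ATAC-seq region, Runx1 peak of control cells and Runx2 peak of Runx1KO cells within 20 kb, for the 24 members higher and the 10 lower in Runx1KO cells. Induced regions lie near 22 of the 24 genes in the upper part and near 1 of the 10 in the lower, where Runx1-dependent regions lie near 5.

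The letters of a few such regions are printed to show where the motifs lie. Windows of 200 bases were read from the mm9 genome, in the plus strand, from regions near 4 members that rose and 1 that fell, and were moved off the middle of the region where an exon lay there. They were picked after the matches were known, to show the range from several motifs to none. Capitals mark the 3 motifs named above, on either strand.
Slc37a1, Runx1KO-induced, chr17:31432964-31433163: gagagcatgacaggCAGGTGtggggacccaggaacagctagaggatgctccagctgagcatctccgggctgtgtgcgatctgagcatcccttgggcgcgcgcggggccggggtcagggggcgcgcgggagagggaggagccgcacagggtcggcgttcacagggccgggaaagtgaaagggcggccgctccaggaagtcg
Slc4a5, Runx1KO-induced, chr6:83189071-83189270: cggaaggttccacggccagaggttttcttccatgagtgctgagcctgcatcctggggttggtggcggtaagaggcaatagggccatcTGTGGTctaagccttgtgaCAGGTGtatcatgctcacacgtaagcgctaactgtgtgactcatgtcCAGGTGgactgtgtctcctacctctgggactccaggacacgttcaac
Slc25a25, Runx1KO-induced, chr2:32283764-32283963: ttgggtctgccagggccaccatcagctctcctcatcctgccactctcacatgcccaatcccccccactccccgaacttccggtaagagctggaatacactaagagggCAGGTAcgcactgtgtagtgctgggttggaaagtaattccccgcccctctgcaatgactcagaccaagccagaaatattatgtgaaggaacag
Slc2a1, Runx1KO-induced, chr4:118769083-118769282: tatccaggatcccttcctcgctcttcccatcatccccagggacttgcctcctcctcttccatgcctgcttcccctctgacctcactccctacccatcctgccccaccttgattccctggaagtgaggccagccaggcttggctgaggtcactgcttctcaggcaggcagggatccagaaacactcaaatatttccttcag
Slc29a4, Runx1-dependent, chr5:143177855-143178054: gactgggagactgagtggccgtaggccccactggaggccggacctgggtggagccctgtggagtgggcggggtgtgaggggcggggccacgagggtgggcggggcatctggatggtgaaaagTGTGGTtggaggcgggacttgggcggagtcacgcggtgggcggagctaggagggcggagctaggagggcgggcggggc

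The windows of Slc37a1 and Slc29a4 end at the base before the annotated start of a transcript, that of Slc4a5 lies in its gene, 1802 bp past a start, that of Slc25a25 lies 2408 bp past a start (distances to the middle of the region) and that of Slc2a1 lies in the region that ends 12007 bp before its start. The Slc4a5 window holds CAGGTG at 2 places and TGTGGT at 1, and the Slc2a1 window holds none of the 3 motifs. Over the middle 200 bases of all regions, 50.7% of the 9427 induced ones held a Zeb motif (CAGGTA or CAGGTG), against 12.0% of the Runx1-dependent and 23.5% of the Runx1-independent ones. TGTGGT was in 14.4, 26.9 and 14.1%. For the nearest induced region of the 22 risers the counts were 11 with a Zeb motif and 3 with TGTGGT, and for the Runx1-dependent regions of the 5 members that fell they were 1 and 2. In the 300 bases from 250 before to 50 after the outermost start, CAGGTG was in 22.5% of members and 17.9% of tested genes, TGTGGT in 11.8 and 12.5%, and CAGGTA in 7.84 and 8.58%. Of the 24 members that rose in Runx1KO cells 10 held CAGGTG there (41.7%), beside 32.6% of all genes that rose, and of the 20 that rose in ZebDKO cells 9 did (45.0%), beside 29.0%. A match of letters is no site of binding, and a window without them says nothing of the factor.

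A further deposited table of TPM values covers the 6 control and Runx1KO libraries, and shows which levels differ between the tables. Whether both used the same gene models is not stated. Of the 204 members, 73 differed over 2-fold in mean level between the tables (35.8%, beside 35.7% of 13152 genes tested in both), and 11 differed over 5-fold (5.39%, beside 9.36%). Slc24a5, a cation exchanger of pigment cells, averaged 132 TPM in the table of 9 libraries, over the 6 shared, and 0.27 TPM in the other. In GENCODE vM1 39.5% of its exon bases lie in exons of Myef2 on the opposite strand, which stood at 86.6, 85.6 and 69.0 TPM (means of control, Runx1KO and ZebDKO). The sources used here do not state whether counting used strand, and without strand reads of the 2 genes cannot be told apart. Slc5a2 averaged 18.2 and 0.03 TPM and Slc3a1 10.1 and 0.03 TPM in the tables, with 20.6% and 26.4% of exon bases shared with a neighbour. In the other direction Slc38a6, a glutamate carrier relative, averaged 32.6 TPM in the table of 9 libraries and 720 in that of 6, and rose from 326 to 1114 TPM there, while it stood at 29.6 and 35.6 TPM in the former and was not called. Of the 11 genes, Slc16a8, Slc23a1, Slc38a6, Slc39a5, Slc4a7 and Slc5a4a shared 0% of exon bases with another gene. Slc15a3, also of the 11, shared 28.1%. Slc39a7 shared 80.1% and was not over 2-fold apart. Whether shared exons have a part in these gaps was not tested.

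Of the 11 genes, 2 carried calls, Slc16a8 and Slc26a10. Slc16a8, a monocarboxylate carrier of pigment epithelium, stood at 1.5, 0.8 and 1.6 TPM in control, 1.5, 1.1 and 1.1 in Runx1KO and 5.5, 5.8 and 4.9 in ZebDKO libraries (log2 change 1.49 in ZebDKO), but at 0.035 TPM in the table of 6. Slc26a10 rose in ZebDKO cells by 1.12, a call lost without control replicate 2, and shares 19.5% of its exon bases with B4galnt1. The large changes of the genes named next held on both tables, while the rise of Slc38a6 given above was called in the table of 6 alone. The table of 6 gave Slc2a1 at 70.4 and 353 TPM in control and Runx1KO cells, Slc2a3 at 0.53 and 48.8, Slc4a11 at 18 and 89.7, Slc1a3 at 263 and 54.7, and Slc14a1 at 145 and 9.03. With it, 21 members rose in Runx1KO cells, 20 of them among the 24, with Slc38a6 gained, and 8 fell, all among the 10. The changes of Slc25a29 (0.90) and Slc2a6 (-0.90) came short of the 2-fold limit there. Slc13a2, Slc17a9, Slc22a7 and Slc16a6 did not meet the level filter in the table of 6 and were not tested with it.

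**Figure D5:**
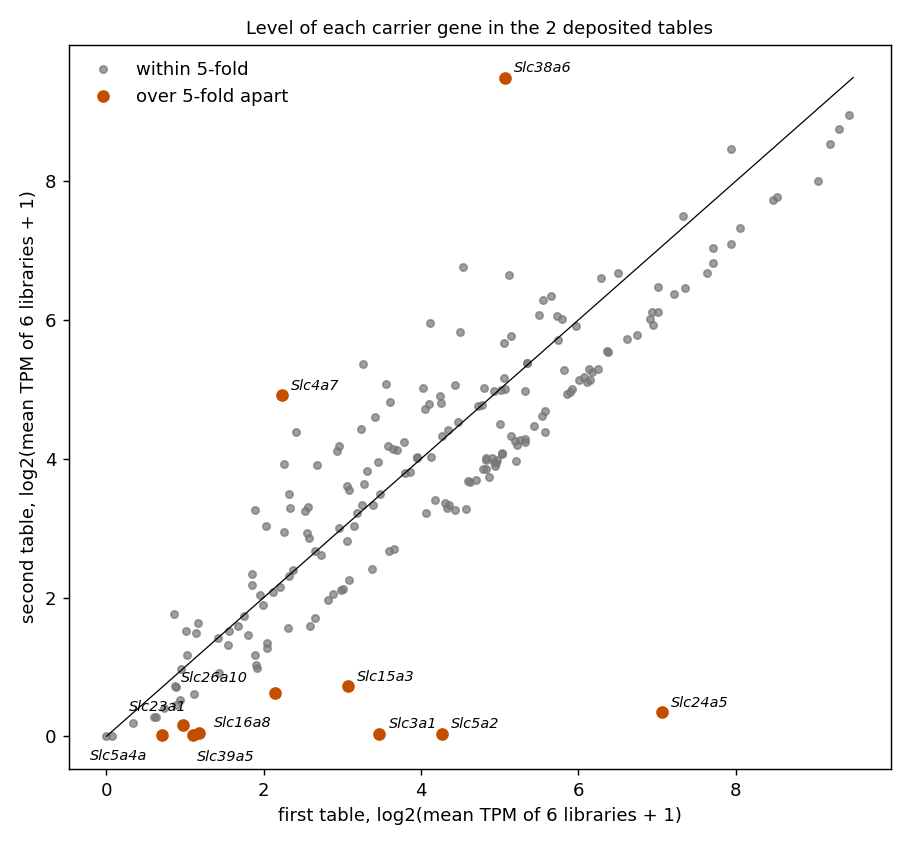
Mean level of each member over the 6 control and Runx1KO libraries in the table of 9 libraries (x axis) and in the table of 6 (y axis), as log2(TPM + 1), with the line of equal values and the 11 members over 5-fold apart named. Slc24a5 stands at 132 against 0.27 TPM and Slc38a6 at 32.6 against 720 TPM.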

How the data were processed

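RNA-seq reads were trimmed, aligned to mm9, cleared of duplicates and counted on RefSeq genes with featureCounts 1.6.2 by the authors, who deposited TPM in a table of 9 libraries (1 decimal) and a table of 6 (2 decimals), and ran DESeq2 1.26.0 on counts not used here. The authors called ChIP-seq peaks with MACS2 on combined replicates. The deposited score, fold enrichment ratio and -log10 columns served only to set a stricter q. The log2 and -log10 columns of the ATAC-seq lists hold the authors' own comparison of Runx1KO with control cells and were not used.

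The methods used a count model, but the files hold TPM, so limma 3.58.1 (R 4.3.3) was fitted on log2(TPM+1) in 1 fit of 9 libraries, for genes at 1 TPM in 3 libraries, with a trend in the variance and Benjamini-Hochberg adjustment, and a gene was called at adjusted p under 0.05 and over 2-fold. Per the study's methods the libraries are triplicate cultures, so p-values measure the spread between cultures of a genotype and not between clones. The members and lists were chosen with earlier results of these data known. Genes were named by rank of change, by rank of level, by list and by family, and other called members after their values were seen. Classes followed Slc family. The fit was tested on simulated data. Same-numbered libraries did not deviate together (9 pairs, correlations of -0.05 to 0.04), so numbers were not taken as pairs. Alternatives were other pseudocounts, filters, scalings, fold limits, windows, the replicate block, the table of 6 libraries and each library left out. Members were placed on GENCODE vM1, 10 of 204 by an older symbol. Python 3.11.15, pandas 2.3.3, scipy 1.17.1 and matplotlib 3.10.9 were used.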

Additional observations from a re-analysis of the deposited data

Results flagged for a closer look

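Slc25a27, a mitochondrial carrier that missed the limit of 1 TPM in the table of 9 libraries, where it averaged 0.733 TPM in Runx1KO cells, averaged 2.43 TPM in the 3 Runx1KO libraries of the table of 6 (3.3, 2.07 and 1.92 TPM), above the control libraries there (1.29, 0.89 and 1.02 TPM). It stands out as a signal in data the main comparisons do not use. Its log2 change of 0.71 (limma, adjusted p 0.00411) was under the 2-fold limit. The cause of the gap between the tables was not tested.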

How the results depend on the processing

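No called change turned direction under any alternative run. Counts are given as rises and falls in Runx1KO against control, ZebDKO against control and ZebDKO against Runx1KO cells, which were 24 and 10, 20 and 11, and 13 and 14. A limit of 1.3-fold gave 53 and 34, 58 and 53, and 46 and 65, and a limit of 4-fold gave 14 and 5, 7 and 1, and 1 and 6. A filter of 5 TPM, which leaves 159 members tested, gave 6 falls in Runx1KO cells, 12 rises and 7 falls in ZebDKO cells, and 7 rises in the contrast of the knockouts, and a pseudocount of 0.1 gave 17 falls in ZebDKO cells. Leaving out each library in turn gave 20 to 25 rises and 5 to 10 falls, 17 to 21 and 6 to 13, and 9 to 13 and 11 to 15. Most losses came from applying the level filter again, as with the tested genes kept (an alternative chosen after seeing the data) the ranges were 23 to 25 and 9 to 10, 18 to 21 and 10 to 13, and 12 to 13 and 14 to 16. The lowest falls, 5 in Runx1KO and 6 in ZebDKO cells, came without control replicate 2 and control replicate 3, and 6 and 7 came without control replicate 1. With the replicate number as a block the counts were 24 and 10, 20 and 11, and 13 and 14, and the numbers do not pair the libraries.

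The share of members with a region near the start moved with the window. For Runx1-dependent regions it was 18.6% at 20 kb, 5.88% at 5 kb, 44.6% at 50 kb and 35.3% when a region was given to its nearest start within 100 kb, beside 19.7, 7.05, 37.4 and 27.0% of all tested genes. For induced regions it was 36.8, 17.6 and 54.4% at 20, 5 and 50 kb, beside 29.5, 11.3 and 51.5% of all tested genes, and for Runx1-independent ones 95.6, 85.8 and 100%, beside 94.3, 86.0 and 97.6%. For Runx1 peaks it was 37.7, 21.6 and 55.9% (37.6, 23.6 and 56.5% of all), for Runx2 peaks of control cells 68.6, 50 and 80.9% (68.8, 53.2 and 83.6% of all), and for those of Runx1KO cells 72.1, 51.0 and 82.8% (70.5, 55.8 and 83.6% of all). A stricter fold limit on ATAC-seq regions was planned and not run, since it needs the authors' comparison column. The files hold no read numbers, so no limit from depth was computed, and levels under 1 TPM move in steps of 0.1.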
